A study of Mus musculus with 100 samples.

Results

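The injury response of C57BL/6 knee joints at 1-week was taken as the difference between 5 injured and 5 uninjured contralateral joint libraries, which are 10 of the 100 libraries of the study. All libraries labelled as C57BL/6 (C57BL/6J in the study's text), 1-week, injured or uninjured were used. Right knees of mice aged 10 weeks had been given a single compressive load of 10 to 12 N, which ruptures the anterior cruciate ligament, under isoflurane and with buprenorphine given afterwards. The opposite knee of loaded mice served as the uninjured joint, so it is neither a sham-operated joint nor a joint of an untouched animal. A further 4 C57BL/6 libraries at 0-day came from mice before injury. All 14 of these libraries carry experimental batch 1 in the labels. Also used were the 1-week libraries of MRL/MpJ and STR/ort, 5 injured and 4 uninjured of each strain, with the same age and load in the labels. The C57BL/6 groups at 1-day and 2-weeks held 5 injured and 5 uninjured libraries each. Joints were whole knees cut at the edges of femur and tibia, so that bone, marrow, cartilage, ligament, synovium and small traces of soft tissue such as muscle and fat were sequenced together. In such bulk samples, fewer cells of a type and less RNA per cell cannot be told apart.

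A ruptured ligament and a strained capsule are repaired by fibroblasts, which lay down collagen fibres, a fibronectin and proteoglycan mesh and the enzymes that fold, crosslink and remodel them. Synovial lining cells make lubricin and hyaluronan, chondrocytes make collagen II and aggrecan, and matrix metalloproteinases and ADAMTS enzymes cut both the scar and the cartilage. Loss of knee stability in this way is a common route to post-traumatic osteoarthritis. Skeletal muscle around a joint holds fast and slow fibres, which use different myosins, light chains and troponins, and the share of each is known to follow how the muscle is used.

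Total counts were from 9358780 to 12561351 in the injured libraries and from 8074119 to 12311812 in the uninjured libraries. The markers fixed for fast and slow muscle, macrophages, marrow neutrophils, B, T and mast cells, erythroid cells, fat, cartilage, bone and synovial fibroblasts were present in every group, and 0 of those listed were at 0 in all 10 libraries. Of 6 skin markers only 1 was listed in the count table. The first principal component held 32.8% of the variance and set all 5 injured libraries apart from all 5 uninjured ones. Injured library 5 was the highest injured library for all 17 fibrous and network collagens and for 14 of 21 activated fibroblast genes, and uninjured library 3 was the highest uninjured library for 7 and 12 of them. Some results that turn on either library are also given without it.

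Of 17310 genes tested, 1007 (5.82%) were called, which means an adjusted p below 0.05 in the quasi-likelihood test of edgeR and a fold change above 1.5. Among them 822 genes (4.75%) were higher in injured joints and 185 (1.07%) were lower. More than 2-fold differences were found for 398 of the genes that rose and 60 of those that fell. For 697 of the 822 genes that rose, every injured library lay above every uninjured library, a pattern seen in 6.58% of all genes. The matching count for genes that fell was 106 of 185, against 3.47% of all genes. Counts of the same kind for single gene lists are read against these shares throughout.

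The largest rises joined secreted matrix regulators with less studied genes. The largest rises and falls were picked among genes without overlap between groups, so the separation of their libraries was fixed by the choice. *Adamts16*, which encodes a secreted metalloproteinase (chr13:70727798-70841845 in GRCm38.p6), stood at 8.24, 9.35, 6.48, 8.76 and 8.0 CPM (counts scaled by library size, with TMM factors) in the 5 injured libraries and at 0.462, 0.525, 0.716, 0.891 and 0.393 in the uninjured libraries (log2 difference 3.73 ± 0.31, adjusted p = 9.86e-10). Here and below ± with a log2 difference is the SE, with n = 5 libraries per joint group in C57BL/6. *C1qtnf3*, an adipokine-like secreted protein of the C1q and TNF family, measured 378, 285, 313, 338 and 758 CPM in injured joints against 12.2, 17.1, 96.1, 28 and 13.4 in uninjured joints (log2 difference 3.64 ± 0.47, adjusted p = 1.55e-06). Uninjured library 3 and injured library 5 stood far from the rest of their groups for this gene, and without uninjured library 3 the difference was 4.57. *Agtr2*, the type 2 receptor of angiotensin II, gave 5.46, 4.01, 3.14, 3.39 and 3.39 CPM in injured joints and 0.231, 0.131, 0.626, 0.162 and 0.393 in uninjured joints (log2 difference 3.57 ± 0.44, adjusted p = 6.21e-07). *Crabp2*, which carries retinoic acid in the cell, rose 7.12-fold (log2 difference 2.83, and 3.54 without uninjured library 3). *Fbn2*, a microfibril protein of developing tissue, rose 5.67-fold, and *Kcnj15*, a potassium channel, rose 5.84-fold. *Apol7a* and *Uox* (urate oxidase) had 3 counts each over all 5 uninjured libraries, against 73 and 70 in the injured libraries. Per total count these are ratios of 22.6 (95% exact interval from 7.44 to 112, counting error only) and 21.7 (from 7.12 to 108), so their size is poorly fixed.

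**Figure D1:**
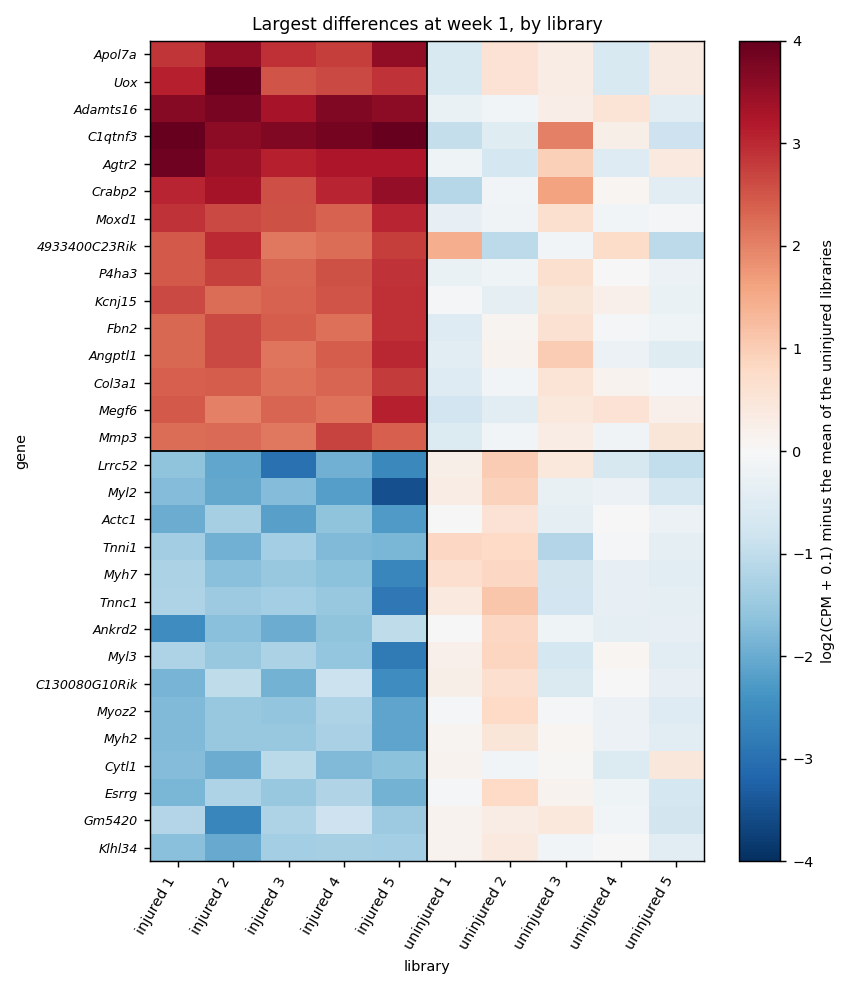
Differences from the uninjured mean in each of the 10 libraries for the 15 called genes with the largest rise and the 15 with the largest fall among genes with at least 1 CPM in the higher group and no overlap between groups (colour: log2 of CPM plus 0.1, minus the mean of the uninjured libraries). Uninjured library 3 is redder than the other uninjured libraries for *C1qtnf3* and *Crabp2*, and injured library 5 is bluest for *Myl2*, *Tnnc1* and *Myl3*.

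Collagen genes rose almost as a block. Of 17 fibrous and network collagens measured, 16 rose and 0 fell, with a median log2 difference of 1.41 against -0.01 over all genes. *Col3a1* (chr1:45311538-45349706), the collagen of early and pliable scar, measured 6446, 6581, 5628, 6205 and 8529 CPM in injured joints and 864, 1125, 1780.0, 1361 and 1162 in uninjured joints (log2 difference 2.43 ± 0.21, adjusted p = 1.45e-09). This is a 5.4-fold rise. *Col14a1* (chr15:55307644-55520803), a collagen that decorates fibrils in tendon and skin, had the smallest adjusted p of all genes, with 215, 216, 167, 197 and 224 CPM in injured joints against 33.8, 35.8, 54.9, 40.4 and 41.9 in uninjured joints (log2 difference 2.32 ± 0.15, adjusted p = 1.22e-11). The collagen VI chains, which form the beaded web around cells, rose together, with log2 differences of 2.03 for *Col6a1*, 2.08 for *Col6a2* and 2.08 for *Col6a3*. Fibril-starting collagen V rose as well, by 3.66-fold for *Col5a1*.

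The main collagen of bone and tendon behaved differently from these in size. *Col1a1* measured 7282, 7006, 7805, 6272 and 11399.6 CPM in injured joints and 4161, 3937, 4634, 6379.8 and 7009 in uninjured joints (log2 difference 0.63 ± 0.20, adjusted p = 0.0332), and the groups overlapped. The call for *Col1a1* was lost without injured library 3 or 5 and without uninjured library 1, 2 or 3, with 1 or 2 RUVg factors and with the summed muscle markers as a covariate. Its partner chain *Col1a2* was the one collagen of the list that was not called (log2 difference 0.53 ± 0.19, adjusted p = 0.063). The basement membrane chains *Col4a1* and *Col4a2* sat just past the fold threshold, with log2 differences of 0.59 and 0.60, and both calls were lost without injured library 5 or uninjured library 1. With 1 library left out, from 13 to 17 of the 17 collagens were called higher.

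**Figure D2:**
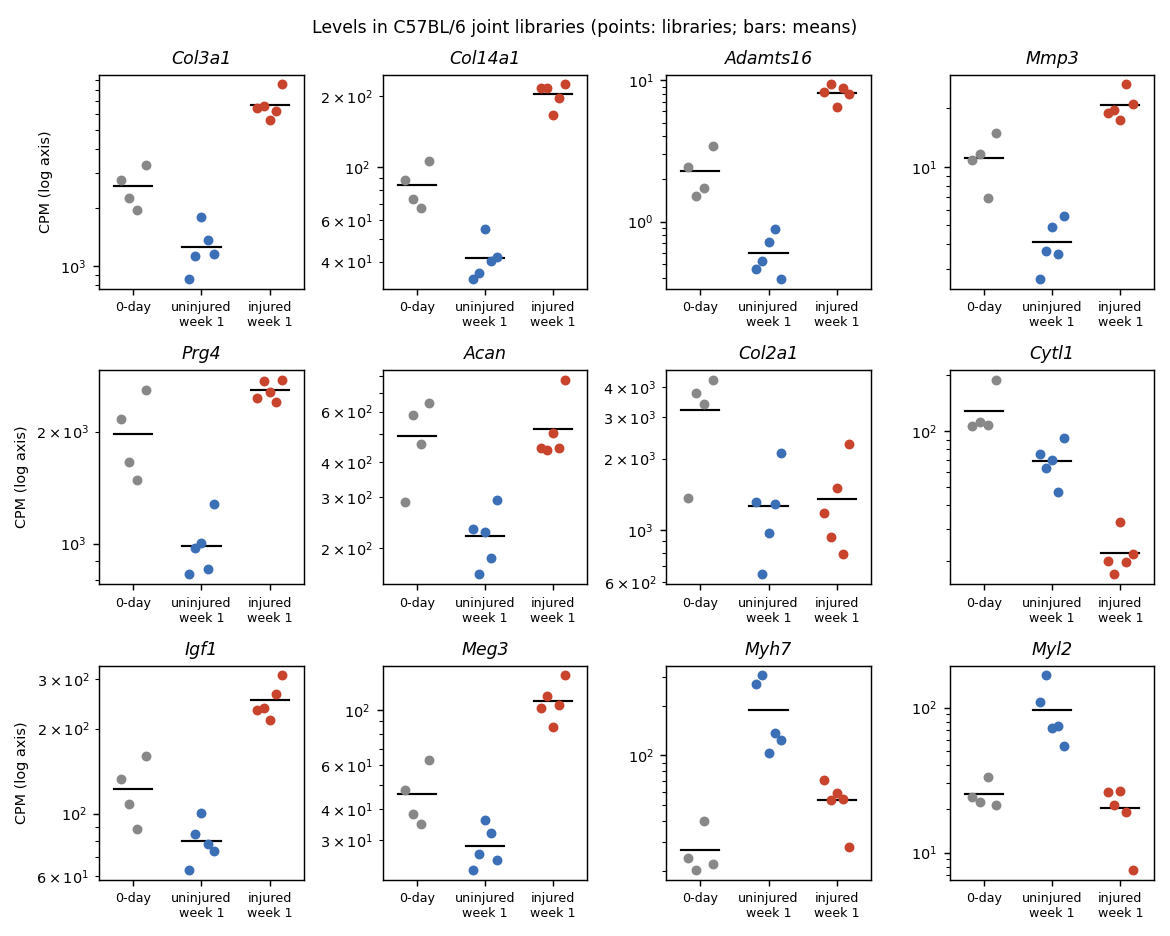
Levels of 12 genes in the C57BL/6 libraries at 0-day (n = 4) and in uninjured and injured joints at 1-week (n = 5 each), in CPM on log axes (points: libraries, lines: means). The means of *Col3a1*, *Col14a1*, *Adamts16*, *Igf1* and *Meg3* lie below 0-day in uninjured joints and above it in injured joints, *Acan* has its lowest mean in uninjured joints, *Col2a1* and *Cytl1* are below 0-day in both, and *Myh7* and *Myl2* have their highest means in uninjured joints.

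The start region of *Col3a1* is shown because it is the collagen with the largest rise. It spans chr1:45311288-45311587 (GRCm38.p6, plus strand, 250 bases before to 50 after the transcript start, from RefSeq), and the capitals mark the letters CATTCC, the reverse complement of GGAATG, which is the core bound by TEAD factors.
*Col3a1*: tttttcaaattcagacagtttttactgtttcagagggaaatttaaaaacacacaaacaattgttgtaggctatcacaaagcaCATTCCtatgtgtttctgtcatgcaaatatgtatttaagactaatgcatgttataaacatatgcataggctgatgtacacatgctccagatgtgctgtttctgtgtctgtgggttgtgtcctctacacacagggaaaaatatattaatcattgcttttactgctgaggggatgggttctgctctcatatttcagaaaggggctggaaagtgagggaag
On either strand GGAATG lay in 12.8% of all 16110 start windows with a RefSeq sequence and in 16.7% of the 720 windows of genes called higher. It lay in 9 (16.4%) of the 55 windows of the collagen, collagen enzyme, fibroblast and proteoglycan lists. Such a match describes the letters and says nothing of binding.

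Enzymes that hydroxylate, fold and crosslink collagen rose with it, 17 of 23 measured and 0 falling (median log2 difference 0.80). The largest rise was that of *P4ha3*, a catalytic subunit of prolyl 4-hydroxylase, with 41, 50.3, 37.7, 44 and 55.7 CPM in injured joints and 6.24, 6.57, 11.8, 7.45 and 6.39 in uninjured joints (log2 difference 2.58 ± 0.20, adjusted p = 5.94e-10). The lysyl oxidases, which crosslink collagen and elastin, rose in 4 of 5 cases, with log2 differences of 1.21 for *Lox*, 1.25 for *Loxl1*, 1.17 for *Loxl2* and 1.29 for *Loxl3*, while *Loxl4* was at -0.05. *Plod2*, the lysyl hydroxylase that sets the pyridinoline crosslinks of scars, rose 2.38-fold. The ubiquitous subunit *P4ha1* did not reach the fold threshold (log2 difference 0.39). Of 16 general chaperones and transport genes of the secretory pathway, 2 were called higher. These were *Kdelr3* (0.97), which returns proteins to the endoplasmic reticulum, and *Sec24d* (0.85), a coat protein of vesicles that carry procollagen. The luminal chaperone *Hspa5* had a log2 difference of 0.21 and was not called.

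Genes of activated fibroblasts rose in 13 of 21 cases and fell in 0 (median 0.82). *Cthrc1*, a secreted protein of injured vessels and matrix, measured 116, 117, 108, 109 and 175 CPM in injured joints and 23.7, 22.1, 33.5, 24 and 22.9 in uninjured joints (log2 difference 2.33 ± 0.21, adjusted p = 4.47e-09). *Postn* (periostin, a matricellular protein that binds collagen) measured 1817, 1939, 1684, 1649 and 2405 CPM against 388, 469, 755, 524 and 404 (log2 difference 1.93 ± 0.23, adjusted p = 3.05e-07). Injured library 5 and uninjured library 3 were again the highest of their groups for both genes, and neither pair of groups overlapped. *Fn1* (fibronectin) rose 3.08-fold, *Thbs2* (thrombospondin 2) 3.67-fold, and *Tnfaip6*, which links hyaluronan to heavy chains, 3.83-fold. The contractile markers of myofibroblasts were not called, with log2 differences of 0.44 for *Acta2* (adjusted p = 0.157) and 0.21 for *Tagln* (adjusted p = 0.63). *Sparc* and *Spp1*, which bone cells also make, were not called either (0.43 and 0.19).

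Small leucine-rich proteoglycans, which coat collagen fibrils and set their thickness, rose in 9 of 11 cases (median 1.02). *Aspn* (asporin) led with 354, 441, 337, 349 and 568 CPM in injured joints against 71.9, 106, 166, 94.2 and 78.2 in uninjured joints (log2 difference 2.01 ± 0.24, adjusted p = 3.38e-07). *Bgn*, *Lum* and *Kera* followed with log2 differences of 1.38, 1.36 and 1.32. The 2 members that were not called, *Omd* and *Epyc*, are made mainly by bone and cartilage cells and were at -0.16 and -0.19. Genes of tendon and ligament rose in 4 of 8 cases. *Tnmd*, a membrane protein of mature tendon cells, measured 91.8, 106, 89.1, 85.6 and 146 CPM in injured joints and 20.2, 35.7, 45.1, 21.8 and 28.7 in uninjured joints (log2 difference 1.80 ± 0.24, adjusted p = 1.95e-06). *Scx*, the transcription factor that starts the tendon lineage, rose 3.08-fold (log2 difference 1.62 ± 0.21, adjusted p = 1.19e-06).

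Of 11 synovial lining and hyaluronan genes 4 rose and 1, the chloride channel gene *Clic5*, fell. The call for *Clic5* (-0.64) was lost without injured library 1, 3 or 5 or uninjured library 2, with 1 or 2 RUVg factors (estimated from housekeeping genes) and with the summed muscle markers as a covariate. *Prg4*, which encodes the boundary lubricant lubricin, measured 2463, 2736, 2547, 2405 and 2753 CPM in injured joints and 827, 977, 1007, 857 and 1274 in uninjured joints (log2 difference 1.41 ± 0.18, adjusted p = 1.19e-06). The hyaluronan synthases *Has1* and *Has2* rose 4.86-fold and 2.78-fold, while *Has3* was at -0.20 and was not called. The hyaluronan-degrading factor *Cemip* also rose (log2 difference 0.83). *Cd44*, the receptor of hyaluronan, and *Cd55*, a lining marker, were not called (0.21 and 0.06). The summed level of the 7 synovial fibroblast markers was from 4308 to 4826 CPM in injured joints and from 2147 to 2712 in uninjured joints, with 5 of the 7 called higher. The part of a larger share of such cells in the rise of matrix genes was not tested.

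Of 16 matrix metalloproteinases measured, 5 rose and 0 fell. *Mmp3* (stromelysin 1, chr9:7445822-7455975), which cuts proteoglycans and activates other metalloproteinases, measured 19, 19.5, 17.5, 26.5 and 20.9 CPM in injured joints and 2.66, 3.68, 4.92, 3.56 and 5.6 in uninjured joints (log2 difference 2.35 ± 0.27, adjusted p = 2.08e-07). *Mmp2* (gelatinase A) rose 3.18-fold and its membrane-bound activator *Mmp14* rose 2.4-fold. *Mmp19* (1.12) and *Mmp23* (1.11) were the other two that rose. The collagenase and gelatinase most tied to cartilage and bone turnover were not called, with log2 differences of 0.12 for *Mmp13* (adjusted p = 0.732) and -0.09 for *Mmp9* (adjusted p = 0.701).

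The start region of *Mmp3* is shown because its letters include TGAGTCA, a spelling of the AP-1 motif TGANTCA, marked in capitals. It spans chr9:7445572-7445871 (GRCm38.p6, plus strand, RefSeq).
*Mmp3*: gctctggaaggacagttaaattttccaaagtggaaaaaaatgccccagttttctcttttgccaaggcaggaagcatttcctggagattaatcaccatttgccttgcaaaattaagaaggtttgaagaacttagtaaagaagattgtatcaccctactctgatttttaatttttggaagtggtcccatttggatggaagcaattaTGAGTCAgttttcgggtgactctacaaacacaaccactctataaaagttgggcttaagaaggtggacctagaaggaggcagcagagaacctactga
TGANTCA lay in 5.82% of all start windows, in 60 (8.33%) of the 720 windows of genes called higher and in 14 (7.61%) of the 184 windows of genes called lower. In the 55 windows of the matrix lists it was found in 3 (5.45%). The immediate early genes that encode AP-1 subunits and related factors had 0 of 13 called at 1-week, and 0 of 6 heat shock genes were called.

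Among ADAM and ADAMTS enzymes 10 of 25 rose (9 without injured library 5) and 0 fell. After *Adamts16*, the largest rises were those of *Adamts12* (1.61) and the aggrecanase *Adamts4* (1.55, adjusted p = 3.2e-05). *Adamts4* stood at 9.58, 7.03, 8.74, 7.34 and 11.5 CPM in injured joints and 1.62, 2.76, 4.03, 3.4 and 3.24 in uninjured joints, without overlap. The other main aggrecanase, *Adamts5*, measured 49, 67.5, 59.3, 59.5 and 66.1 CPM against 50.9, 53.8, 57, 52.7 and 66.7 and was not called (log2 difference 0.13 ± 0.12, adjusted p = 0.605). Inhibitors also moved apart. *Timp1* measured 53, 58.3, 56.1, 46.7 and 66.2 CPM in injured joints and 16.2, 21, 21.1, 20.1 and 22.8 in uninjured joints (log2 difference 1.49 ± 0.20, adjusted p = 2.32e-06), and *Timp2* rose 2.03-fold. *Timp3*, which is bound to matrix, was at -0.03. *Timp4*, an inhibitor of muscle and heart, fell (log2 difference -0.77 ± 0.23, adjusted p = 0.0289), a call that was lost without any one of injured libraries 1, 3, 4 and 5 or uninjured libraries 1, 2 and 3, with 1 or 2 RUVg factors and with the muscle covariate. *Plat* (tissue plasminogen activator), a serine protease, rose 2-fold.

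**Figure D3:**
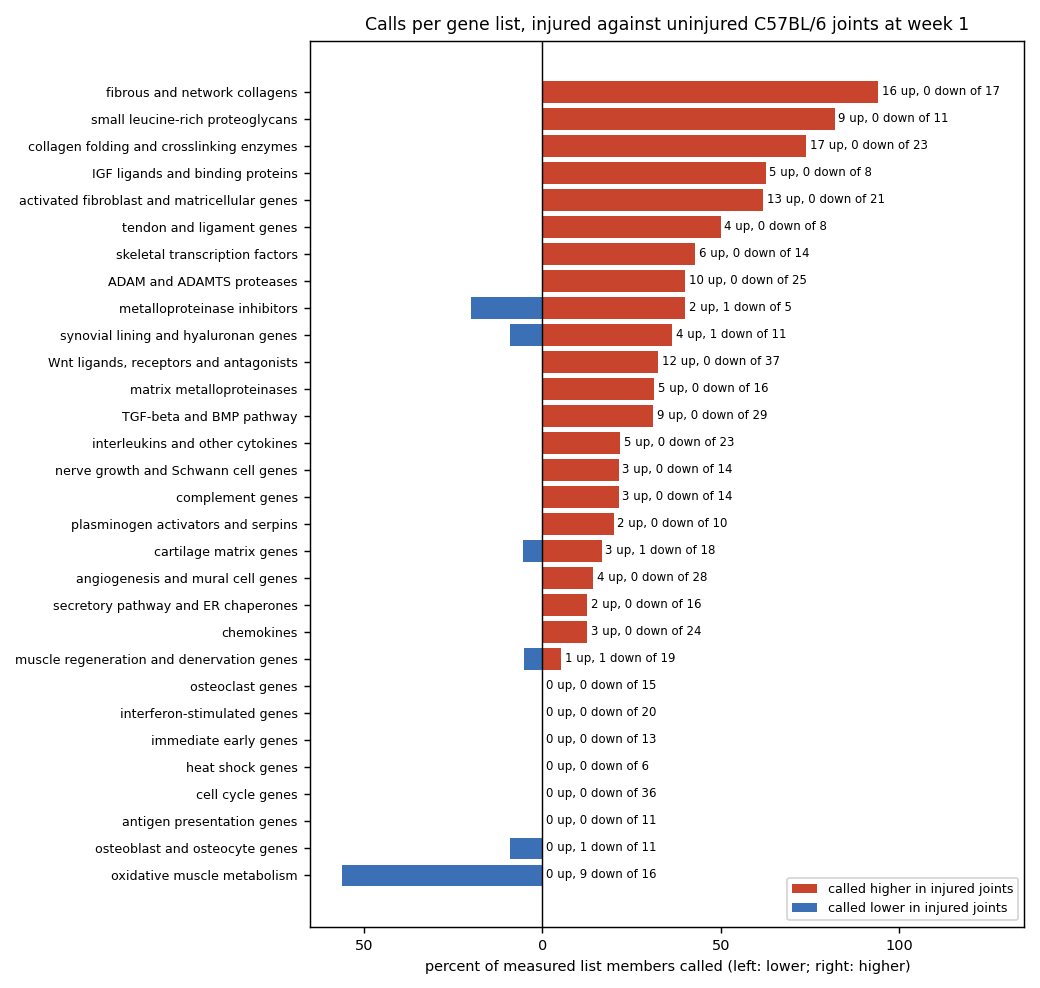
Share of measured members called higher (right) or lower (left) in injured C57BL/6 joints at 1-week for each of 30 gene lists, with the counts beside the bars. Collagens, small leucine-rich proteoglycans and collagen enzymes have the highest shares of members that rose, and oxidative muscle metabolism is the list with most members that fell.

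Cartilage genes showed no common direction. Of 18 cartilage matrix genes measured, 3 rose and 1 fell, with a median log2 difference of -0.09. The number that fell was 3 with 2 RUVg factors and 3 with the muscle covariate. Those that rose were *Acan* (aggrecan), *Comp* (cartilage oligomeric matrix protein) and *Prg4*, of which tendon and synovium also make *Comp* and *Prg4*. *Acan* measured 449, 442, 503, 448 and 776 CPM in injured joints and 232, 161, 227, 184 and 295 in uninjured joints (log2 difference 1.28 ± 0.18, adjusted p = 4.59e-06), with injured library 5 far above the other 4. *Col2a1*, the collagen that defines cartilage, measured 1183, 929.5, 1503, 787 and 2310.3 CPM against 1307, 647, 969, 1284 and 2112, a difference smaller than the spread within either group (log2 difference 0.11 ± 0.29, adjusted p = 0.883). *Cytl1* (chr5:37735519-37739820), a small secreted protein made by chondrocytes, fell from 75.1, 63.6, 69.9, 46.9 and 92.2 CPM in uninjured joints to 20.2, 17, 32.4, 19.8 and 21.8 in injured joints (log2 difference -1.62 ± 0.22, adjusted p = 3.08e-06). *Sox9*, the factor that directs the cartilage programme and is also used by tendon progenitors, rose 2.09-fold (log2 difference 1.07 ± 0.23, adjusted p = 0.00175). Of 14 skeletal transcription factors 6 rose, namely *Sox5*, *Sox9*, *Runx1*, *Scx*, *Twist1* and *Prrx1*, while the bone factors *Runx2* and *Sp7* were at 0.04 and -0.12 and were not called. The calls for *Runx1* (0.60) and *Twist1* (0.59) lay only just past the fold threshold, and both were lost without injured library 5 or uninjured library 2 and with 2 RUVg factors.

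Of 11 osteoblast and osteocyte genes 1 was called, *Bglap* (osteocalcin), which fell by 0.60 on the log2 scale (adjusted p = 0.0386) and whose reads may be shared with the near-identical *Bglap2*. The call was lost without injured library 1, 2, 3 or 4 and without uninjured library 2, 4 or 5, and with library sizes scaled by housekeeping genes. *Ibsp* and the osteocyte gene *Sost* had log2 differences of 0.00 and -0.28. Of 15 osteoclast genes 0 were called, *Ctsk* (cathepsin K) having the log2 difference 0.40 and *Acp5* 0.00.

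Wnt signalling genes had 12 of 37 called higher and 0 lower, and antagonists and receptors were most of these. The secreted decoy *Sfrp2* measured 52.7, 55.2, 58.1, 43.7 and 59 CPM in injured joints and 8.31, 11.3, 12.1, 12.8 and 15.3 in uninjured joints (log2 difference 2.18 ± 0.21, adjusted p = 6.6e-09). *Sfrp1* rose 3.81-fold and *Dkk3* 3.54-fold. Among enhancers of the pathway, *Rspo2* rose 2.76-fold and *Rspo1* 1.97-fold, and the receptor *Fzd2* rose 2.49-fold. The feedback target *Axin2* was at 0.03 (adjusted p = 0.954), and the nuclear factors *Lef1* and *Tcf7* were at 0.05 and -0.17, none of them called.

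In the TGF-beta and BMP families 9 of 29 genes rose and 0 fell. Ligands called were *Tgfb3* (0.81), *Inhba* (0.81), which encodes the activin A subunit, and *Gdf5* (1.81), a joint-forming ligand. *Tgfb1*, the ligand that blood cells hold in quantity, was at 0.03. *Gdf5* was at or below 1.37 CPM in every library, and its call (adjusted p = 0.0469) was lost in 8 of the 10 fits that left out 1 library, with 2 RUVg factors and with the muscle covariate. The latent binding proteins *Ltbp1*, *Ltbp2* and *Ltbp3* rose with log2 differences of 0.82, 0.80 and 0.97, and the follistatin-like protein *Fstl1* rose 3.26-fold.

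IGF genes had 5 of 8 called higher. *Igf1* measured 234, 237, 214, 266 and 309 CPM in injured joints and 63.2, 84.7, 100.2, 77.8 and 73.9 in uninjured joints (log2 difference 1.68 ± 0.15, adjusted p = 1.55e-09). *Igf2* rose 2.27-fold (log2 difference 1.18 ± 0.12, adjusted p = 3.41e-08), and of the binding proteins *Igfbp3*, *Igfbp4* and *Igfbp7* rose.

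The cytokine, chemokine and complement lists each had a higher share of members that rose than the 4.75% of all genes. The classical cytokines *Il1b* and *Tnf* had log2 differences of 0.00 and -0.04 (adjusted p = 1 and 0.937). *Il6* was at or below 0.801 CPM in all libraries, its difference of 1.34 was not called (adjusted p = 0.154), so that no change was detectable at this depth. Of 23 cytokines measured, 5 rose, of which *Il33*, an alarm cytokine of stromal cells, measured 11.8, 12.4, 12.3, 12.5 and 11.6 CPM in injured joints and 6.58, 7.75, 7.07, 4.37 and 4.42 in uninjured joints (log2 difference 1.05 ± 0.22, adjusted p = 0.00121). *Il11*, a cytokine of fibrosis, rose too (log2 difference 1.68 ± 0.45, adjusted p = 0.0119), a call that was lost without injured library 5 or uninjured library 4. The other three were *Il5*, *Il17d* and *Tnfsf15*, of which *Il5* and *Il17d* lost the call without single libraries.

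Chemokines had 3 of 24 called higher and 0 lower. These were *Ccl8* (log2 difference 1.84 ± 0.43, adjusted p = 0.00333), *Cxcl16* (log2 difference 0.88 ± 0.17, adjusted p = 0.000473) and *Ccl7* (log2 difference 2.01 ± 0.61, adjusted p = 0.0287), which draw monocytes and T cells. *Ccl7* had at most 1.42 CPM in any library and lost its call without injured library 2 or 5 or uninjured library 1 or 4, with all 100 libraries in 1 fit and with the muscle covariate. *Ccl2*, the main chemokine of monocytes, was not called (log2 difference 0.64 ± 0.42, adjusted p = 0.412). Complement genes had 3 of 14 called, *C1s1* (0.76), *Cfb* (0.95) and the receptor *C3ar1* (1.36).

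Of 22 macrophage markers, *Trem2*, *Gpnmb* and *Cd14* rose and 19 were not called, the call for *Cd14* being lost with the muscle covariate. *Trem2*, a lipid receptor of tissue macrophages, measured 10.4, 8.99, 8.05, 7.89 and 12.8 CPM in injured joints and 5.54, 3.94, 4.83, 5.75 and 4.72 in uninjured joints (log2 difference 0.97 ± 0.20, adjusted p = 0.001). *Adgre1*, which encodes F4/80 and marks macrophages in general, was at 0.14 (adjusted p = 0.436). The summed macrophage markers were from 3229.8 to 3472 CPM in injured joints and from 3206 to 3949 in uninjured joints, and the groups overlapped. None of the 14 neutrophil, 10 B cell, 7 T cell, 9 mast cell and 9 measured erythroid markers was called. Neither was any of 20 interferon-stimulated genes, 11 antigen presentation genes or 36 cell cycle genes, whose medians were -0.03, -0.02 and -0.11. *Mki67*, a marker of dividing cells, had a log2 difference of -0.09 (adjusted p = 0.809).

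Of 28 genes of vessels and mural cells 4 rose (3 without injured library 5). Among them were *Apln* (apelin, a peptide of sprouting endothelium), which rose 2.41-fold, and *Cspg4*, a pericyte proteoglycan, which rose 1.86-fold. The endothelial markers *Pecam1* and *Cdh5* were at 0.15 and 0.16 and were not called. Of 14 nerve genes 3 rose, with *Gap43*, a protein of growing axons and reactive Schwann cells, at 1.55, 1.6, 1.28, 1.34 and 1.37 CPM in injured joints against 0.115, 0.394, 0.447, 0.324 and 0.59 in uninjured joints (log2 difference 1.90 ± 0.31, adjusted p = 4.46e-05).

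Slow muscle genes were the marker list with most members that fell. Of 12 slow muscle markers 10 fell (median -1.66), and 3 of 17 fast muscle markers fell (median -0.46), a difference between lists that was not tested. The fast count was from 1 to 5 with 1 library left out, 1 with 2 RUVg factors and 1 with the muscle covariate. *Myh7*, the slow myosin heavy chain, measured 70.9, 54, 59.6, 54.6 and 27.9 CPM in injured joints and 269, 306, 103, 137 and 125 in uninjured joints (log2 difference -1.79 ± 0.53, adjusted p = 0.025). Uninjured libraries 1 and 2 were highest by far, and the call was lost without either of these or without injured library 5, with 2 RUVg factors and with the muscle covariate. *Myl2*, the slow regulatory light chain, measured 26.3, 21.4, 26.4, 19.1 and 7.59 CPM in injured joints and 109, 167, 71.9, 75.1 and 54.6 in uninjured joints (log2 difference -2.22 ± 0.44, adjusted p = 0.000675). *Tnni1*, *Tnnc1* and *Myl3*, the slow troponins and the slow essential light chain, differed by -1.80, -1.72 and -1.67 on the log2 scale, the call for *Tnnc1* being lost without uninjured library 2 and with the muscle covariate, and those for *Tnnc1* and *Tnni1* with 2 RUVg factors. *Myh2*, the myosin of fast oxidative fibres, fell as well (log2 difference -1.63 ± 0.25, adjusted p = 2.52e-05). *Myh4*, the myosin of the fastest fibres, measured 18296, 23756, 15143, 20614 and 10798 CPM against 26369.5, 29277, 27384, 16862 and 16887 and was not called (log2 difference -0.37 ± 0.23, adjusted p = 0.381).

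The summed level of muscle markers varied between the libraries. Summed fast muscle markers were from 41640.0 to 80996 CPM in injured joints and from 60941 to 106140.0 in uninjured joints, and the groups overlapped. Summed slow muscle markers were from 1106 to 1209.7 and from 1427 to 2531 CPM, without overlap. The muscle covariate was the log2 sum of the fast and slow markers, so it holds the 12 slow markers themselves. With this covariate, in a fit added after these values were seen, 6 of the 12 slow markers were called lower. With 2 RUVg factors (estimated from housekeeping genes) 4 were. Without uninjured library 2 the count was 6. In each of these fits with the covariate or the RUVg factors, 15 of the 17 collagens rose. The part that the amount of muscle in each library had in the fall of slow muscle genes was not tested.

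Genes of oxidative muscle metabolism moved the same way, with 9 of 16 called lower and 0 higher (median -0.65). *Mb* (myoglobin) and *Ckmt2*, the mitochondrial creatine kinase, fell by 1.05 and 1.40 on the log2 scale. This count was 2 with 2 RUVg factors and 2 with the muscle covariate, and it was 4 without injured library 5. *Bdh1*, a ketone body enzyme of mitochondria, had the smallest adjusted p of all genes that fell, at 8.96, 10.7, 11.2, 11.6 and 10.2 CPM in injured joints and 22.9, 36.5, 24.4, 27.1 and 20.4 in uninjured joints (log2 difference -1.28 ± 0.13, adjusted p = 3.41e-08). *Esrrg*, a nuclear receptor that drives the oxidative programme, fell by 1.56, and *Vgll2*, a cofactor of TEAD factors in muscle, by 1.20 on the log2 scale. The heart-type actin *Actc1* fell by 1.83 (adjusted p = 1.71e-05). Of 19 genes of muscle regeneration and denervation, *Tmem8c* (myomaker, needed for fusion of myoblasts) was called higher from at most 1.29 CPM, and *Myog* and *Myh3* were not called (0.59 and 0.68). The number called higher was 4 with 2 RUVg factors and 4 with the muscle covariate, and the number called lower was from 1 to 4 with 1 library left out.

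The start region of *Myl2* is shown as the slow muscle gene that fell most. It spans chr5:122092474-122092773 (GRCm38.p6, plus strand, RefSeq), and the capitals mark an E-box, CAGCTG, of the kind bound by the MyoD family.
*Myl2*: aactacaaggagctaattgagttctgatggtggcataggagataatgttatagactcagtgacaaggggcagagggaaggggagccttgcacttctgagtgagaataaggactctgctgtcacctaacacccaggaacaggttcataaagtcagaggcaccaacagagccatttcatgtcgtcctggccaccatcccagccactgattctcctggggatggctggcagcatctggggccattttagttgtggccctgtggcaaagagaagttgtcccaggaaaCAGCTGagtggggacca
CAGCTG lay in 6 (37.5%) of 16 start windows of the slow muscle markers and in 16.5% of all windows. It lay in 20.8% of the windows of genes called higher and in 20.1% of those of genes called lower.

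Fat markers fell in 4 of 14 cases and rose in 0. *Retn* (resistin) measured 5.56, 5.79, 5.5, 6.08 and 4.44 CPM in injured joints and 14.5, 16.3, 15.9, 12.6 and 17.8 in uninjured joints (log2 difference -1.47 ± 0.20, adjusted p = 2.89e-06), and *Cidec*, a protein of lipid droplets, fell by 0.93 on the log2 scale. *Adipoq* (adiponectin) was lower in every injured library than in any uninjured library and missed the adjusted threshold (log2 difference -0.35 ± 0.12, adjusted p = 0.062). The summed fat markers were from 807 to 1108 CPM in injured joints and from 1168 to 1493 in uninjured joints, without overlap. The part of fat in the libraries in these falls was not tested.

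Whether the uninjured joint stayed at its level before injury was asked by setting both joints against the 4 libraries at 0-day, in 1 fit of the 14 C57BL/6 libraries. These comparisons share the 0-day libraries with each other and the joint libraries with the injury comparison, so the values are given side by side. They also differ by time and by loading of the animal, including anaesthesia and analgesia, which cannot be told apart. In uninjured joints at 1-week 165 genes (0.953%) were higher than at 0-day and 780 (4.51%) were lower. In injured joints 193 (1.11%) were higher and 236 (1.36%) were lower. The 945 genes of the uninjured joint became 685 without 0-day library 4, the lowest count over 17 alternatives.

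Collagens separated in both directions from 0-day. In uninjured joints 12 of 17 were lower than at 0-day (median -0.90) and 0 were higher, whereas in injured joints 9 were higher (median 0.83) and 0 were lower. The 0-day libraries measured 2779.6, 2247, 1949 and 3288 CPM for *Col3a1*, from which it differed by -1.05 on the log2 scale in uninjured joints (adjusted p = 0.000929) and 1.38 in injured joints (adjusted p = 0.000202). *Postn* differed from 0-day in injured joints (1.52 with adjusted p = 2.98e-05) and was not called in uninjured joints (-0.40 with adjusted p = 0.119). *Igf2* was -0.09 in uninjured joints (adjusted p = 0.765) and 1.08 in injured joints (adjusted p = 0.000222).

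Activated fibroblast genes were lower than at 0-day in 13 of 21 cases in uninjured joints, and in injured joints 8 were higher and 1 was lower (from 0 to 3 under the alternatives). Of 16 matrix metalloproteinases 5 were lower in uninjured joints (from 3, with 1 RUVg factor, to 6 under the alternatives) and 4 were higher in injured joints. Of 23 collagen folding and crosslinking enzymes 19 were lower than at 0-day in uninjured joints, while in injured joints 1 was higher and 2 were lower. Small leucine-rich proteoglycans were lower in 10 of 11 cases in uninjured joints, and in injured joints 1 was higher and 2 were lower. *Prg4* stood at 2160.3, 1658, 1485 and 2591 CPM at 0-day, -1.02 from 0-day on the log2 scale in uninjured joints (called) and 0.38 in injured joints (not called, adjusted p = 0.173). *Lox* and *Acan* followed this pattern, with -0.91 and -1.19 in uninjured joints (both called) and 0.29 and 0.08 in injured joints (neither called).

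All 18 cartilage matrix genes measured were lower than at 0-day in uninjured joints (median -1.31) and 15 in injured joints (median -1.49). The injured count went down to 8 under the alternatives, the lowest being without 0-day library 2. *Col2a1* at 0-day measured 1359, 3783, 3415 and 4309.7 CPM, of which the first library lay within the range of the joints at 1-week. All 11 osteoblast and osteocyte genes were lower in both joints, with medians of -0.84 and -1.02. *Sost* was -0.82 in uninjured joints and -1.11 in injured joints, both called. *Mmp13* was -0.63 in uninjured joints, a call that was lost without uninjured library 2 or 0-day library 2 and with 1 RUVg factor, and -0.52 in injured joints, which was not called.

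**Figure D4:**
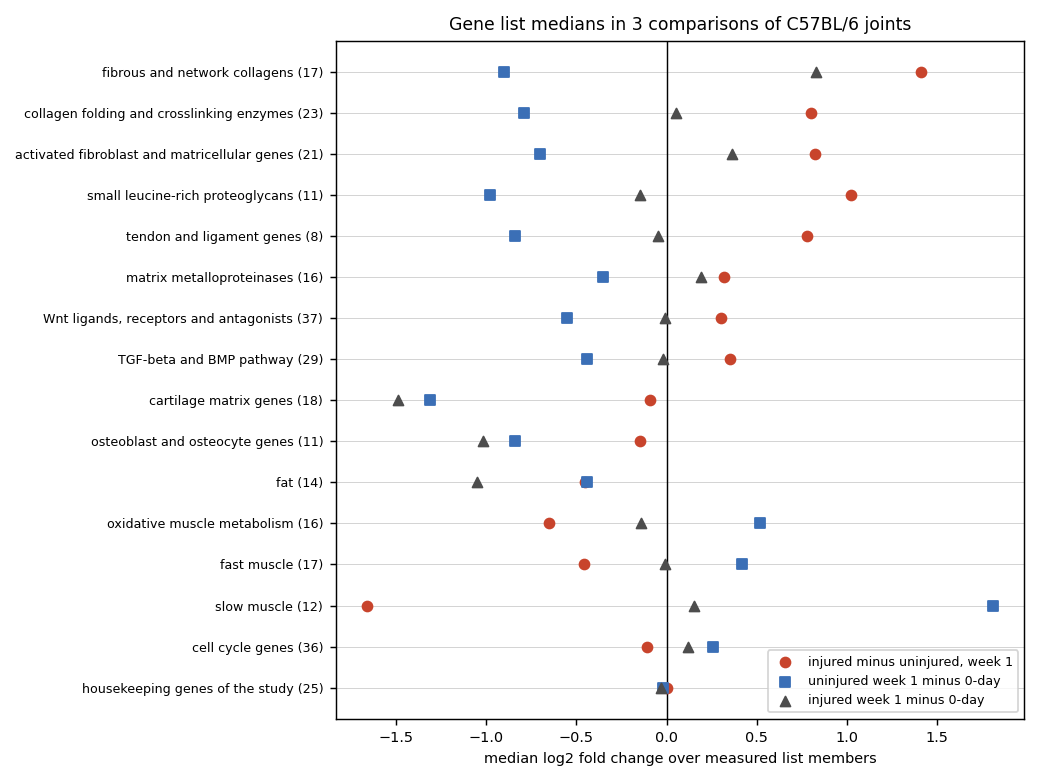
Median log2 fold change over the measured members of 16 gene lists (number of members in brackets) for injured minus uninjured joints at 1-week, uninjured joints at 1-week minus 0-day, and injured joints at 1-week minus 0-day, all C57BL/6. Collagens lie below 0 in the uninjured joint and above 0 in the injured joint, cartilage and osteoblast lists lie below 0 in both joints, and slow muscle is far above 0 in the uninjured joint and near 0 in the injured joint.

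Slow muscle showed the opposite arrangement. In uninjured joints 10 of 12 slow markers were higher than at 0-day (median 1.81), while in injured joints 0 were called in either direction (median 0.15). *Myh7* measured 23.9, 20.3, 40.4 and 22 CPM at 0-day, 188 ± 92.6 CPM (SD, n = 5) in uninjured joints at 1-week and 53.4 ± 15.8 (SD, n = 5) in injured joints. Its difference from 0-day was 2.80 with adjusted p = 4.89e-05 in uninjured joints and 1.00 with adjusted p = 0.102 in injured joints. *Actc1* did not follow, with -0.72 in uninjured joints, a call lost without uninjured library 1 or 3 or 0-day library 4, and -2.56 in injured joints (called). Fat markers were lower than at 0-day in 5 of 14 cases in uninjured joints and in 9 of 14 in injured joints.

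Injury effects of other strains and times were compared by the difference of the effects. The comparisons with MRL/MpJ, with STR/ort and between times all share the 10 C57BL/6 libraries of 1-week. Between MRL/MpJ, a strain that heals well, and C57BL/6, 0 of 17310 genes (0%) were called at 1-week with edgeR, 505 had an unadjusted p below 0.05, and DESeq2 called 0 as well (440 at an unadjusted p below 0.05). *Col3a1*, *Col14a1*, *Prg4* and *Mmp3* rose in MRL/MpJ with log2 differences of 2.61, 2.81, 1.13 and 2.90. These counts do not show that the strains respond alike. For *Myh7* the effect was -0.01 in MRL/MpJ, -2.02 in STR/ort and -1.79 in C57BL/6, and neither difference from C57BL/6 was called (1.78 with adjusted p = 1 and -0.23 with adjusted p = 0.948).

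Between STR/ort, a strain prone to osteoarthritis, and C57BL/6, the injury effect differed for 85 genes (0.491%), 24 of them with the higher effect in STR/ort and 61 with the higher effect in C57BL/6. This count was 48, 53 and 53 without injured library 1, 2 or 3, 56 and 51 without uninjured library 1 or 2, and 130 without uninjured library 5. It was 151 with 1 RUVg factor, 174 with DESeq2, 181 with the likelihood ratio test of edgeR and 291 with the replicate number as a block. *Prg4* rose in C57BL/6 and had an effect of -0.33 in STR/ort, so that the effects differed by -1.74 ± 0.26 (adjusted p = 0.000568). *Mmp3* had an effect of 0.54 in STR/ort (difference -1.81 ± 0.35, adjusted p = 0.00835). *Fn1* had an effect of 0.03 in STR/ort (difference -1.59), while *Col14a1* and *Adamts16* rose there by 1.01 and 1.40 on the log2 scale (differences -1.31 and -2.33). All 5 of these calls held in each of 15 alternatives, none of which left out a STR/ort library. *Comp*, *H19* and *Bdh1* were called too, with differences of -1.05, 1.03 and 0.84, but these calls held in 5, 8 and 5 of the 15 alternatives and were lost when most single C57BL/6 libraries were left out.

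Between 1-day and 1-week within C57BL/6, 123 genes (0.711%) had the higher injury effect at 1-day and 143 (0.826%) at 1-week. With 1 RUVg factor these counts were 245 and 187, so that which time had more genes depended on the fit. Higher at 1-day were 3 of 24 chemokines, 5 of 22 macrophage markers, 5 of 11 antigen presentation genes (3 without injured library 4), 0 of 23 cytokines, 3 of 16 oxidative muscle genes (from 2 to 8 under the alternatives) and 3 of 19 genes of muscle regeneration and denervation (from 2 to 8). *Ccl2* had an effect of 3.31 at 1-day, which was 2.69 ± 0.49 more than at 1-week (adjusted p = 0.00353). *Cxcl5*, a neutrophil chemokine, differed by 2.84, *Cxcl16* by 0.85, *Trem2* by 1.08 and *Adgre1* by 0.82 in the same direction. Higher at 1-week were 7 of 17 collagens and 4 of 11 small leucine-rich proteoglycans (from 2, without injured library 5, to 6 under the alternatives). Of the 22 macrophage markers 1, *Retnla*, also had the higher effect at 1-week (difference -1.41 ± 0.33, adjusted p = 0.0267). Its call was lost in some alternatives, among them that without injured library 1. *Adamts16* had an effect of 0.93 at 1-day (difference -2.77 ± 0.31, adjusted p = 2.35e-05), and *Agtr2* had 0.10 (difference -3.43 ± 0.56). *Tnmd*, *Acan*, *Mmp2*, *Igf2*, *Timp2* and *Fmod* also had the higher effect at 1-week, by 1.57, 1.32, 1.21, 1.28, 1.01 and 1.03 on the log2 scale. *Col3a1* had risen already at 1-day (1.88), and its difference between times was not called (adjusted p = 0.381). *Timp1* had its higher effect at 1-day (2.33, difference 0.86), a call that was lost when any of 8 single libraries was left out.

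At 2-weeks, which the labels give as experimental batch 2, the effects in C57BL/6 were 1.72 for *Col3a1*, 3.43 for *Adamts16*, 1.35 for *Prg4* and -0.28 for *Myh7*, of which the last was not called. Time and batch cannot be told apart there, and no difference from 1-week was tested.

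**Figure D5:**
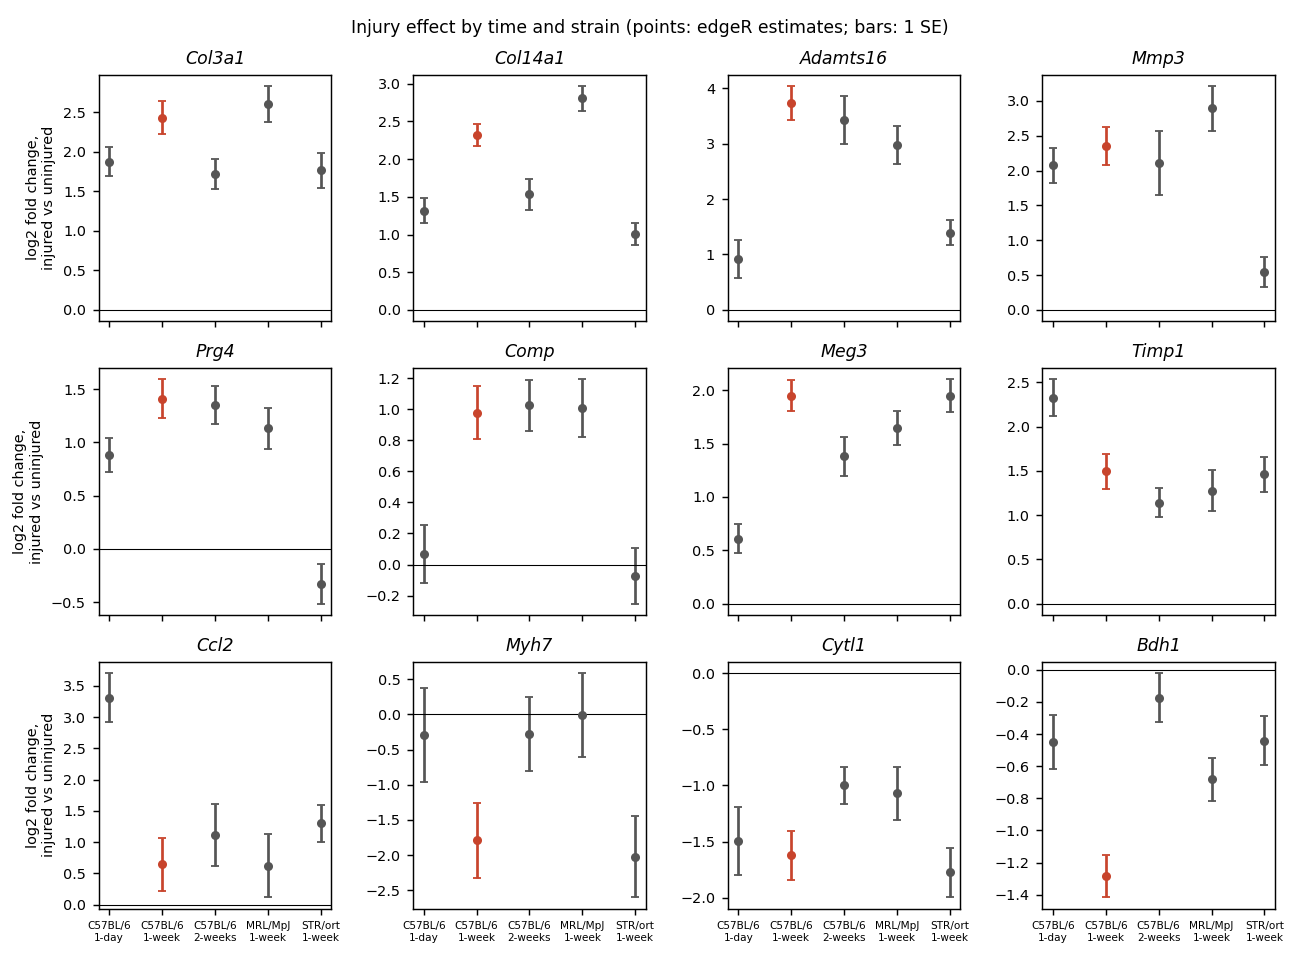
Injury effect (log2 fold change of injured against uninjured joints, points, with bars of 1 SE) for 12 genes in C57BL/6 at 1-day, 1-week (red) and 2-weeks and in MRL/MpJ and STR/ort at 1-week. Groups held 5 libraries each, but 4 for the uninjured joints of MRL/MpJ and of STR/ort. *Prg4* and *Comp* rise at 1-week in C57BL/6 and MRL/MpJ and are near or below 0 in STR/ort, *Ccl2* is highest at 1-day, and *Adamts16* and *Meg3* are lower at 1-day than at both later times in C57BL/6.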

How the data were processed

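Whole-joint RNA (TruSeq poly(A) libraries) was sequenced, and the authors aligned reads with TopHat2 2.0.11 to mm10 and counted them per RefSeq gene with featureCounts. The deposited values are raw counts of 100 libraries, and whether counting used strand is not given in the sources used here. Of 17313 rows, 3 repeated rows were dropped, which left 17310 genes, and 24 names had been turned into dates by a spreadsheet. Requiring 2 or more counts in 5 or more of the libraries excluded 0 genes. Total counts per library limit precision for genes at a few counts, and intervals cover counting error only. The columns were matched to samples by name and 0 were left unmatched.

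Counts were fitted with edgeR 4.0.16 (R 4.3.3, TMM scaling, quasi-likelihood test, Benjamini-Hochberg adjustment over all genes), using all libraries of 1-week with a mean for each strain and joint, which share an estimate of the spread. SEs are the log2 difference divided by the square root of F. Levels are CPM with TMM factors over 100 libraries. Comparisons with 0-day used the 14 C57BL/6 libraries, and that of 1-day with 1-week used the C57BL/6 libraries of both times. Alternatives were other scaling, RUVg factors from 25 housekeeping genes, DESeq2 1.42.0, other filters and library sets, a replicate block and single libraries left out. Those left out were C57BL/6 libraries of 1-week and, in the fits with 0-day, also of 0-day. No library of MRL/MpJ, STR/ort or 1-day was left out. Figures used Python 3.11.15 with matplotlib 3.10.9.

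On counts simulated for this comparison with 50 changed genes per fold, 21 were called at 1.5-fold, 45 at 2-fold and 50 at both 4-fold and 8-fold, with 6 unchanged genes called. The changed genes were drawn from those with an expected mean of at least 10 counts, so genes with fewer are not covered. The comparison and the gene lists were chosen with earlier results of these data known. Named genes were the 15 largest rises and falls without overlap between groups (at least 1 CPM in the higher group), the 10 smallest adjusted p in each direction, and list members. Examples from a list were its called members with the largest change and members whose function is given. The labels do not say that libraries of 1 number came from 1 mouse, so p-values measure the spread between libraries, which may be technical. The near-identical genes *Bglap* and *Bglap2* may share reads.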

Additional observations from a re-analysis of the deposited data

Results flagged for a closer look

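In 8 of 104 tested groups of 5 libraries, 1 library lay further from the others than Dixon's 95% critical value of 0.71 allows. Chance alone gives about 1 in 20. The highest uninjured library measured 11.8 CPM for *P4ha3*, 33.5 CPM for *Cthrc1* and 96.1 CPM for *C1qtnf3*, in each case library 3. The highest injured library measured 175 CPM for *Cthrc1*, 758 CPM for *C1qtnf3* and 776 CPM for *Acan*, in each case library 5. *Ccl7* was at 0 CPM in uninjured library 4, and the summed osteoblast markers reached 2016 CPM in uninjured library 5.

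The injury effect differed between STR/ort and C57BL/6 by a test of the difference itself, given here as log2 difference, STR/ort minus C57BL/6. It was lower in STR/ort for *Adamts16* (-2.33), *Col14a1* (-1.31), *Comp* (-1.05), *Fn1* (-1.59), *Mmp3* (-1.81), *Prg4* (-1.74) and *Sox5* (-1.02). It was higher in STR/ort for *Bdh1* (0.84) and *H19* (1.03). Of 15 alternatives, the calls for *Bdh1*, *Comp* and *Sox5* held in 5 each and that for *H19* in 8, the losses being mostly with a single C57BL/6 library left out.

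Within C57BL/6 the injury effect differed between 1-day and 1-week, given as log2 difference, 1-day minus 1-week. It was higher at 1-day for *Adgre1* (0.82), *C3ar1* (1.20), *Ccl2* (2.69), *Ckmt2* (1.09), *Cxcl16* (0.85), *Cxcl5* (2.84), *Esrrg* (1.27), *Ltbp2* (1.05), *Timp1* (0.86), *Trem2* (1.08) and *Vgll2* (1.28). It was higher at 1-week for *Acan* (-1.32), *Adamts12* (-0.66), *Adamts16* (-2.77), *Agtr2* (-3.43), *Cdkn1c* (-0.67), *Cemip* (-0.91), *Col14a1* (-0.98), *Col6a1* (-0.97), *Col6a2* (-1.0), *Col6a3* (-0.91), *Comp* (-0.88), *Ctsk* (-0.75), *Dkk3* (-1.21), *Fbn2* (-1.50), *Fmod* (-1.03), *Fn1* (-0.95), *Igf1* (-0.78), *Igf2* (-1.28), *Igfbp3* (-0.85), *Kcnj15* (-1.08), *Lum* (-0.77), *Meg3* (-1.31), *Mest* (-1.68), *Mmp14* (-0.75), *Mmp2* (-1.21), *Plagl1* (-1.02), *Plod2* (-0.76), *Rian* (-1.02), *Rspo2* (-1.34), *Sox5* (-1.05), *Timp2* (-1.01) and *Tnmd* (-1.57). Of 15 alternatives, the calls for *Kcnj15* and *Vgll2* held in 6 each, those for *Comp* and *Timp1* in 7 each, those for *Adamts12* and *Esrrg* in 9 each, that for *Plod2* in 10 and that for *Lum* in 13, while the other calls between times given here held in all 15. None of these alternatives left out a library of 1-day.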

How the results depend on the processing

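Of 17310 genes, the 1007 called between the joints became 981 with RLE size factors, 935 with 2 RUVg factors, 994 with DESeq2 and 1098 with the likelihood ratio test, and from 795 (without injured library 5) to 1106 (without uninjured library 5) when 1 library was left out. The share of higher genes among those called, 81.6% here, was from 76.7% to 91.3%, the highest being that with 2 RUVg factors. No called gene among those named changed direction in any of 22 alternatives. With the summed muscle markers as a covariate, added after the data were seen, 864 genes were called, 784 higher and 80 lower against 822 and 185 without it, and 772 of the 864 were among the 1007.

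The difference between STR/ort and C57BL/6 was the least stable count. The 85 genes became 151 with 1 RUVg factor, 174 with DESeq2, 181 with the likelihood ratio test and 291 with the replicate number as a block. With 1 C57BL/6 library left out the count was from 48 to 130. The 266 genes that differed between 1-day and 1-week became 432 with 1 RUVg factor (245 higher at 1-day, 187 at 1-week), and from 198 to 315 with 1 library left out. The 0 genes between MRL/MpJ and C57BL/6 were 0 in every alternative, none of which left out an MRL/MpJ library. The counts against 0-day were from 685 to 1098 for the uninjured joint and from 343 to 485 for the injured joint.

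Joints carry shared replicate numbers, and the labels do not say that equal numbers mark 1 mouse. The deviations of injured and uninjured libraries of 1 number correlated with r = 0.0956, 0.266, -8.31e-05, -0.023 and 0.274 for numbers 1 to 5, and only libraries 2 and 5 correlated best with their own number. With the replicate number as a block, 1036 genes were called between the joints (825 higher, 211 lower), 291 between STR/ort and C57BL/6 and 368 between 1-day and 1-week (202 higher at 1-day, 166 at 1-week). Depth limits genes at a few counts, such as *Apol7a*, *Uox* and *Gdf5*. The contralateral joint is no sham control, and the summed levels of muscle and fat markers differ between libraries.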

Other observations

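A group of imprinted genes, which are expressed from 1 parental copy and of which many act in growth of the fetus, was noticed among the genes that rose and was then listed, so it was chosen after its values were seen and carries no test. Of 24 measured members 14 rose and 0 fell, with a median log2 difference of 0.98. Over the 22 alternatives from 12 to 16 were called higher. *Meg3*, a long noncoding RNA (chr12:109540996-109571729 in GRCm38.p6), measured 102, 114, 85.3, 105 and 138 CPM in injured joints and 22.9, 26.4, 36.3, 32.2 and 25 in uninjured joints (log2 difference 1.95 ± 0.15, adjusted p = 2.98e-10). *Rian*, its neighbour in the same cluster, rose 3.9-fold. *Mest*, an enzyme of the hydrolase family, measured 45.2, 49.3, 51.8, 43.6 and 69.6 CPM in injured joints and 8.31, 10.5, 14.6, 10.7 and 9.63 in uninjured joints (log2 difference 2.29 ± 0.20, adjusted p = 1.55e-09). *Plagl1*, a zinc finger factor, rose 2.29-fold, and *H19* rose 1.93-fold from a level of 507 ± 82 CPM (SD, n = 5). *Cdkn1c*, an inhibitor of cell division, rose by less (log2 difference 0.63 ± 0.11, adjusted p = 9.78e-05), and its call was lost without injured library 4 or uninjured library 5.

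The same genes did not stand in 1 relation to 0-day. *Meg3* differed from 0-day by -0.70 on the log2 scale in uninjured joints and by 1.24 in injured joints, and *Mest* by -0.92 and 1.37. *H19* differed by 0.14 and 1.08. *Nnat* and *Slc38a4*, further members, were not called between joints (-0.59 and -0.45).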
